A study of Mus musculus with 12 samples.

Results

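The genes described here are 10 antioxidant enzymes and targets of the transcription factor Nrf2 in mouse lung: Sod1, Sod2, Sod3, Cat, Hmox1, Slc7a11, Gclc, Gclm, Txnrd1 and Nqo1. They were chosen by name. A probe set of the array belongs to a gene when the platform annotation gives that gene as its only symbol, and of several such probe sets the brightest, by log2 signal averaged over the 12 arrays, stands for the gene. All 10 were found among 18193 genes with such a probe set. They have 24 probe sets, of which 23 were bright enough to be tested, and all 10 representative probe sets were tested.

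Whole-lung RNA was measured on 12 Affymetrix 3-prime arrays in 4 groups of 3. Wild-type mice, of the strain Balb/c, were sampled 8 h after a sham operation or after cecal ligation and puncture (CLP), in which the cecum is tied off and pierced so that gut bacteria cause abdominal sepsis. Mice labelled PPTA knockout, whose labels name no strain, had the same 2 operations and the same sampling time. All mice were 8 to 10 weeks old. PPTA is preprotachykinin A, encoded by Tac1, the precursor of the neuropeptide substance P. The design asks how the septic lung behaves when that gene is missing.

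The Tac1 signal went against the genotype labels. Its tested probe set read 379, 441 and 530 on the knockout-labelled sham arrays and 442, 337 and 462 on the knockout-labelled CLP arrays, against 2.80 to 16.1 on the 6 wild-type arrays. The labels do not say whether this probe set lies in the deleted part, and the groups are called knockout-labelled throughout. Strain and genotype label cannot be told apart. Nothing in the labels ties a replicate to an animal of its own, so the p-values reflect the spread among these arrays, some of which may be technical. Array 3 of knockout-labelled sham stood apart, with correlations of 0.937 to 0.939 to the other arrays of its group. On it 646 probe sets were over 2-fold above both of the others and 758 over 2-fold below both. In whole tissue, less RNA per cell and fewer cells of a type cannot be told apart.

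Cells meet oxidants with a set of enzymes that work in sequence. Superoxide dismutases turn superoxide into hydrogen peroxide: Sod1 in the cytosol, Sod2 in mitochondria and Sod3 outside the cell. Catalase (Cat) and the glutathione and thioredoxin systems then remove the peroxide. Slc7a11 imports cystine for glutathione, Gclc and Gclm form the ligase that makes its first intermediate, and Txnrd1 keeps thioredoxin reduced. Hmox1 breaks down heme and Nqo1 reduces quinones. Nrf2 (gene Nfe2l2) is held down by Keap1 and, when released, joins a small Maf protein on the antioxidant response element of its targets, where Bach1 competes with it. Slc7a11, Gclc, Gclm, Txnrd1, Hmox1 and Nqo1 are textbook Nrf2 targets. Sod2 is also a classical target of NF-kappaB, and Slc7a11 is also induced by the amino acid response factor Atf4.

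RefSeq promoter windows of build GRCm38.p6, 250 bases before to 50 bases after an annotated start, were matched for 7 of the 10 genes in 9 windows. For Slc7a11, Gclm and the Txnrd1 window shown, that start lies inside the span annotated for the gene and not at its outer end. The genes not matched were Sod3, Hmox1 and Gclc. The windows were searched on both strands for the antioxidant response element core TGACNNNGC, the AP-1 element TGANTCA, the NF-kappaB element by its standard consensus and the C/EBP-ATF element TGATGNAA. The last was added after the Slc7a11 window had been read. Positions count from that start and give the leftmost base of a match in the direction of the gene. The 5 windows printed here were chosen from those that hold a match, and capitals mark the matches. They lie, in this order, at chr17:13007589-13007888 (plus strand), chr2:103485104-103485403 (minus strand), chr3:50443564-50443863 (minus strand), chr3:122245307-122245606 (plus strand) and chr10:82858956-82859255 (plus strand).
Sod2: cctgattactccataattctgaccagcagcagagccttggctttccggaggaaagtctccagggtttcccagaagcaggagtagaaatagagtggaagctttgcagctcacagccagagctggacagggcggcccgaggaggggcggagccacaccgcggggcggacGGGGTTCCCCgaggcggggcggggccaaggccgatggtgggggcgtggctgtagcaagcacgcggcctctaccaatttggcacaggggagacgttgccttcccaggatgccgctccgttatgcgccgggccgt
Cat: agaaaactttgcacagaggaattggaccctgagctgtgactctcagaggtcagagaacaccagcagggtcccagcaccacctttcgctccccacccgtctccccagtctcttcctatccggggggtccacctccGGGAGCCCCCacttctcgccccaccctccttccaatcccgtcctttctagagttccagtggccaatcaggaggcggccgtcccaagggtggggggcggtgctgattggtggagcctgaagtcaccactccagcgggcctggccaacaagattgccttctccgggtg
Slc7a11: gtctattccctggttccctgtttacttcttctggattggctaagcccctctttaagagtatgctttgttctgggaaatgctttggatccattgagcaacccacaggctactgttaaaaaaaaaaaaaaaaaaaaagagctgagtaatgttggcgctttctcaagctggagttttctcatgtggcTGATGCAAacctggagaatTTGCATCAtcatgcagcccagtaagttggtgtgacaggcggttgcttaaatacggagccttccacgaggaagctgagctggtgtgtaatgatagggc
Gclm: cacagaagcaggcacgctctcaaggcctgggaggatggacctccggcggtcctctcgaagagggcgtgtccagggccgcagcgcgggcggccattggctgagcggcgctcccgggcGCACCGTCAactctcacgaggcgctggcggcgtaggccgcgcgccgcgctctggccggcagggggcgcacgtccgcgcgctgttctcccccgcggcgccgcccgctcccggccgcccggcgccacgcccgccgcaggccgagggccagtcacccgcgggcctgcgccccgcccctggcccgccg
Txnrd1: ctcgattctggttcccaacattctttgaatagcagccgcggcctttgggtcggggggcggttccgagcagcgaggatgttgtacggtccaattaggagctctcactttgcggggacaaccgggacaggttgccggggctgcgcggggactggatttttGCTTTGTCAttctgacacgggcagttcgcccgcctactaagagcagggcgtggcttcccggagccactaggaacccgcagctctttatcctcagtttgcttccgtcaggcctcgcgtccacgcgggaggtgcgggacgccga

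The antioxidant response element core stood at position -134 of Gclm, at -92 of the Txnrd1 window shown, which is the second of 3 for that gene, and at -56 of Sod1. It is held by 12.4% of the 32851 windows of this length. An NF-kappaB element stood at -83 of Sod2 and -116 of Cat and is held by 8.46% of windows. The Slc7a11 window had the C/EBP-ATF element at -66 and, on the other strand, at -47, and 3.97% of windows hold it at least once. No match overlapped another. The AP-1 element, held by 7.81% of windows, was not found in the windows of these genes, and the Nqo1 window held none of the 4 elements. A match describes letters and is not a measured binding site.

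After CLP, 6 of the 10 genes changed in knockout-labelled lung and none passed the test in wild-type lung. In knockout-labelled lung Slc7a11, Sod2, Hmox1, Txnrd1 and Gclc rose and Cat fell, while Sod1, Sod3, Gclm and Nqo1 did not pass. Changes are given as log2 differences of signal plus a pseudocount of 3.47, with standard errors, and were called at an adjusted p under 0.05 over all 24574 tested probe sets. The pseudocount pulls folds of weak probe sets towards none. The 5 rises and 1 fall compare with 10.4% of all tested probe sets called up and 18.8% called down in that comparison, or 29.2% in either direction. Among the 5 rises, Slc7a11 reached the test only through CLP arrays. The median change of the 10 genes was 0.51, against -0.12 over all tested probe sets. In wild-type lung 0 of 10 genes were called at limma's adjusted p, against 0.948% of all probe sets (0.814% up and 0.134% down), and the median of the 10 was 0.07 against -0.05 for all. At an unadjusted p under 0.05, 1 of the 10, Slc7a11, passed there. With array weights 1 passed after adjustment, in a fit that called 1308 of the 24574 tested probe sets. When the wild-type arrays were fitted alone, 2 passed. The arrays of sham and CLP did not overlap for 2 of the 10 genes in the wild type, where 24.3% of all probe sets did not overlap (9.35% with CLP higher and 15.0% with CLP lower), and for 6 of 10 in knockout-labelled lung, where 36.1% did not.

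**Figure D1:**
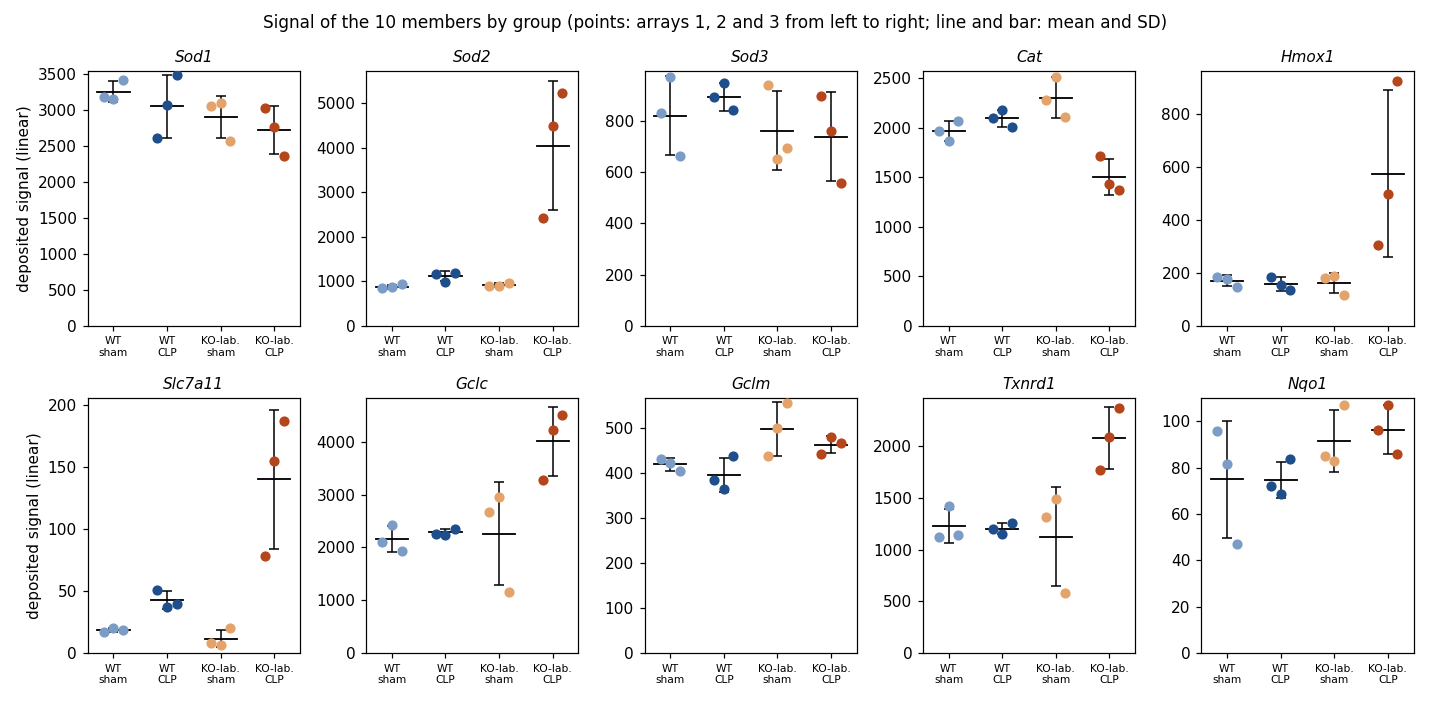
Deposited linear signal (vertical axes, each starting at 0) of the representative probe set of each of the 10 genes in the 4 groups. Points are arrays 1, 2 and 3 from left to right, lines and bars are mean and SD. The 3 knockout-labelled (KO-lab.) CLP arrays lie above all other 9 arrays for Sod2, Hmox1, Slc7a11, Gclc and Txnrd1, and below them for Cat.

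Among the dismutases, Sod2 had the clear response. Its representative probe set, 1448610_a_at, read 847, 864 and 929 after sham in the wild type and 1171, 982 and 1183 after CLP. In knockout-labelled lung it read 888, 901 and 964 after sham and 2431, 4490 and 5223 after CLP. The CLP arrays stood above the sham arrays in both genotypes, and the lowest knockout-labelled CLP array was above every wild-type array. The knockout-labelled response was 2.07 ± 0.21, a 4.18-fold rise (adjusted p = 7.2e-05). The wild-type change was 0.33 ± 0.21 (adjusted p = 0.78 with all groups in the fit). Fitted with the wild-type arrays alone, that change had an adjusted p of 0.038. For the other Sod2 probe sets, sham and CLP arrays overlapped in the wild type. There 1417193_at changed by 0.06 ± 0.24 and 1454976_at by 0.26 ± 0.26, and the mean of the probe sets by 0.13 (adjusted p = 0.97).

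Among the other probe sets of Sod2, 1417193_at rose by 2.67 ± 0.24 and 1454976_at by 1.50 ± 0.26 in knockout-labelled lung. The weak 1417194_at read 45.8, 93.8 and 97.0 after knockout-labelled CLP and 14.1 to 26.2, below every array median, on the other 9 arrays. It reached the test only through those 3 arrays and is given as values alone. Probe set 1417193_at averaged 840 ± 90.4 and 879 ± 107 (SD, n = 3) for sham and CLP in the wild type, and 621 ± 13.4 and 4257 ± 1708 in the knockout-labelled groups. Probe set 1454976_at differed from the rest by separating the genotypes already after sham. It read 155, 124 and 167 in wild-type sham, and 353, 390 and 396 in knockout-labelled sham, a difference of 1.34 ± 0.26 (adjusted p = 0.0071). The representative and 1417193_at gave 0.06 and -0.43 for the same contrast, and neither passed.

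Sod1, the cytosolic enzyme, read 3186, 3153 and 3420 in wild-type sham against 2609, 3066 and 3480 in wild-type CLP. The knockout-labelled values were 3048, 3089 and 2572 after sham and 3030, 2769 and 2362 after CLP. All 4 groups overlapped a neighbour in the order of means, and the CLP change was -0.10 ± 0.12 in each genotype. Probe sets of Sod1 disagreed in knockout-labelled lung. Probe set 1435304_at went from 223 ± 31.9 to 352 ± 18.3 (SD, n = 3), a rise of 0.66 ± 0.12 (adjusted p = 0.0025). Probe set 1440222_at went from 96.4 ± 15.8 to 51.9 ± 5.15, a change of -0.84 ± 0.16 (adjusted p = 0.0026). The brighter 1451124_at changed by -0.13 ± 0.15, as little as the representative. The representative carries the suffix s, used for probes that can match several transcripts.

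Sod3, the secreted dismutase of vessel walls and airways, read 832, 971 and 663 after wild-type sham, 894, 950 and 842 after wild-type CLP, 940, 653 and 696 in knockout-labelled sham and 900, 762 and 557 in knockout-labelled CLP. The groups overlapped throughout. Its changes after CLP were 0.14 ± 0.19 in the wild type and -0.05 ± 0.19 in knockout-labelled lung, and neither passed. The second probe set, 1417634_at, had group means of 367 to 441.

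Cat was the gene that fell. It read 1968, 1870 and 2067 in wild-type sham against 2099, 2178 and 2010 in wild-type CLP, groups that overlap. In knockout-labelled lung it read 2284, 2515 and 2104 after sham and 1711, 1430 and 1368 after CLP, and the CLP values were the lowest of the 12 arrays. The fall was -0.62 ± 0.10 on the log2 scale (adjusted p = 8.6e-04), beside a median of -0.12 over all probe sets. With each array centred on the median of its tested probe sets the fall was -0.49 ± 0.09 (adjusted p = 0.0028). The second probe set, 1416430_at, fell by 0.57 ± 0.10 (adjusted p = 0.0017), from 1865 ± 164 to 1262 ± 176 (SD, n = 3).

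Hmox1, the inducible heme oxygenase, is on the array with a single probe set. It read 186, 178 and 147 after wild-type sham, 186, 153 and 136 after wild-type CLP, and 181, 187 and 116 in knockout-labelled sham. The knockout-labelled CLP arrays read 304, 497 and 922. These arrays were above all others and also the most spread, with a mean of 574 ± 316 (SD, n = 3). The rise was 1.70 ± 0.32, or 3.24-fold (adjusted p = 0.0022), and the wild-type change was -0.11 ± 0.32. Hpx, the plasma protein that binds free heme, read 29.6, 29.1 and 28.3 after knockout-labelled sham and 63.7, 174 and 186 after CLP. Hpx passed the filter only with the help of the knockout-labelled CLP arrays and is given as values alone. Its signal was below the median of every knockout-labelled sham array. The geometric mean of its knockout-labelled CLP arrays was 3.34 times that of those medians.

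Slc7a11, the cystine importer, was weak after sham and rose after CLP in knockout-labelled lung. Its signal was below the array medians of 31.1 to 38.4 on all sham arrays, with 16.6, 19.8 and 18.6 in the wild type and 8.40, 6.69 and 19.9 in knockout-labelled lung. After CLP it read 51.0, 37.0 and 39.7 in the wild type and 77.9, 155 and 187 in knockout-labelled lung. CLP and sham arrays did not overlap in either genotype, and the knockout-labelled CLP arrays were above the wild-type CLP arrays. Since the sham level is not shown to be above background, the fold is best read as a bound on the average rise. The geometric mean of the knockout-labelled CLP arrays was 3.45 times that of the medians of the knockout-labelled sham arrays. The fitted change was 3.25 ± 0.35 (adjusted p = 1.1e-04), and 2.39 ± 0.25 with a pseudocount of 17.3. The probe set reached the test only through CLP arrays, 3 in each genotype. With no filter on low values the adjusted p was 1.6e-04.

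The wild-type change of Slc7a11 was 1.07 ± 0.35 (adjusted p = 0.29) and did not pass in the fit of all groups. It passed with array weights (1.10 ± 0.21, adjusted p = 0.0071) and when the wild-type arrays were fitted alone (adjusted p = 0.018). The second probe set, 1443536_at, read 65.2, 94.5 and 127 after knockout-labelled CLP, 7.79 to 21.8 on the sham arrays and 34.7, 18.9 and 21.4 after wild-type CLP. It passed the filter only with the help of the knockout-labelled CLP arrays and is given as values alone. The partner chain of the importer, Slc3a2, read 1417, 1380 and 1257 in knockout-labelled sham and 2209, 2558 and 2818 in knockout-labelled CLP. That rise of 0.90 ± 0.09 had the smallest p of the glutathione list (adjusted p = 7.8e-05). In the wild type Slc3a2 averaged 1473 ± 48.6 after sham and 1576 ± 57.0 after CLP.

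Gclc, the catalytic subunit of the glutathione ligase, read 2111, 2428 and 1932 in wild-type sham against 2262, 2241 and 2357 in wild-type CLP. Knockout-labelled sham read 2677, 2957 and 1147, and knockout-labelled CLP 3279, 4233 and 4513. The CLP arrays were above all sham arrays, but array 3 of knockout-labelled sham was 2.46-fold below the mean of arrays 1 and 2. The rise was 0.93 ± 0.27 (adjusted p = 0.021). Without that sham array it was 0.50 ± 0.13 (adjusted p = 0.0098). It lost its call without array 2 (adjusted p = 0.068) or array 3 (adjusted p = 0.067) of knockout-labelled CLP, with quantile normalisation (0.79 ± 0.28, adjusted p = 0.054) and with only the 2 groups in the fit (adjusted p = 0.10). The second probe set, 1455959_s_at, rose by 1.24 ± 0.27 (adjusted p = 0.0052).

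Txnrd1, the cytosolic thioredoxin reductase, followed the same arrays. It read 1126, 1421 and 1142 after wild-type sham, 1200, 1151 and 1255 after wild-type CLP, 1315, 1488 and 579 in knockout-labelled sham and 1772, 2090 and 2371 in knockout-labelled CLP. Array 3 of knockout-labelled sham was again low, 2.42-fold below the mean of the other 2. The rise was 0.98 ± 0.26, or 1.98-fold (adjusted p = 0.016). Without that array it was 0.56 ± 0.13 (adjusted p = 0.0059), and without array 3 of knockout-labelled CLP the call was lost (0.88 ± 0.30, adjusted p = 0.052). It was also lost with only the 2 groups in the fit (adjusted p = 0.087). Its probe set 1424486_a_at rose by 1.06 ± 0.20 (adjusted p = 0.0025), and 1424487_x_at rose too (adjusted p = 0.0052).

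**Figure D2:**
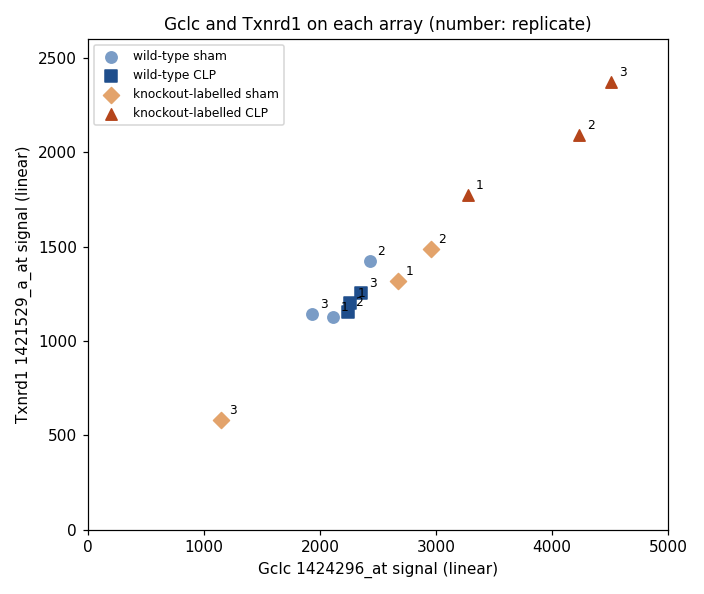
Signal of Txnrd1 (vertical axis) against Gclc (horizontal axis) on the 12 arrays, both linear, with array numbers beside the points and groups by colour and shape. The 3 knockout-labelled CLP arrays are at the upper end, from 3279 to 4513 for Gclc, and array 3 of knockout-labelled sham is at the lower end, with 1147 for Gclc and 579 for Txnrd1.

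Gclc and Txnrd1 moved together over the 12 arrays, with a Pearson correlation of log2 signals of 0.99. The correlation was 0.97 over the 9 arrays outside knockout-labelled CLP and 0.98 without array 3 of knockout-labelled sham. Hmox1 was also low on that sham array, at 116 against 184 for the mean of arrays 1 and 2. It correlated with Gclc at 0.86, and at 0.78 outside knockout-labelled CLP. Slc7a11 went the other way on the same array, with 19.9 against 7.54. By contrast the correlation of 0.93 between Sod2 and Hmox1 was -0.32 outside knockout-labelled CLP, and that of -0.90 between Sod2 and Cat was -0.07. These correlations describe arrays that share groups and are given without a test.

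Gclm, the regulatory subunit of the ligase, was among the steadiest of the 10, with an SD of 0.16 in log2 signal over 12 arrays. Its representative read 430, 423 and 404 after wild-type sham, 385, 365 and 437 after wild-type CLP, 438, 499 and 556 in knockout-labelled sham and 442, 480 and 467 in knockout-labelled CLP. Sham and CLP overlapped in both genotypes, with a change of -0.10 ± 0.11 in knockout-labelled lung (adjusted p = 0.53). The second probe set, 1439050_at, read 153, 165 and 146 after knockout-labelled sham and 270, 232 and 311 after CLP, with no overlap. It rose by 0.79 ± 0.13 (adjusted p = 0.0012), so the call for Gclm depends on the probe set. The mean of both gave 0.35 ± 0.09 (adjusted p = 0.014).

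Nqo1, the quinone reductase often used as a marker of Nrf2 activity, read 95.9, 81.7 and 47.1 in wild-type sham against 72.0, 68.6 and 83.6 in wild-type CLP. Knockout-labelled sham read 84.8, 82.8 and 107, and knockout-labelled CLP 96.0, 107 and 85.9. Sham and CLP overlapped in both genotypes. The changes were 0.05 ± 0.22 in the wild type and 0.08 ± 0.22 in knockout-labelled lung (adjusted p = 0.83). The related Nqo2 read 181, 160 and 149 after knockout-labelled sham and 92.5, 88.1 and 65.5 after CLP, a change of -0.98 ± 0.15 (adjusted p = 6.8e-04).

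**Figure D3:**
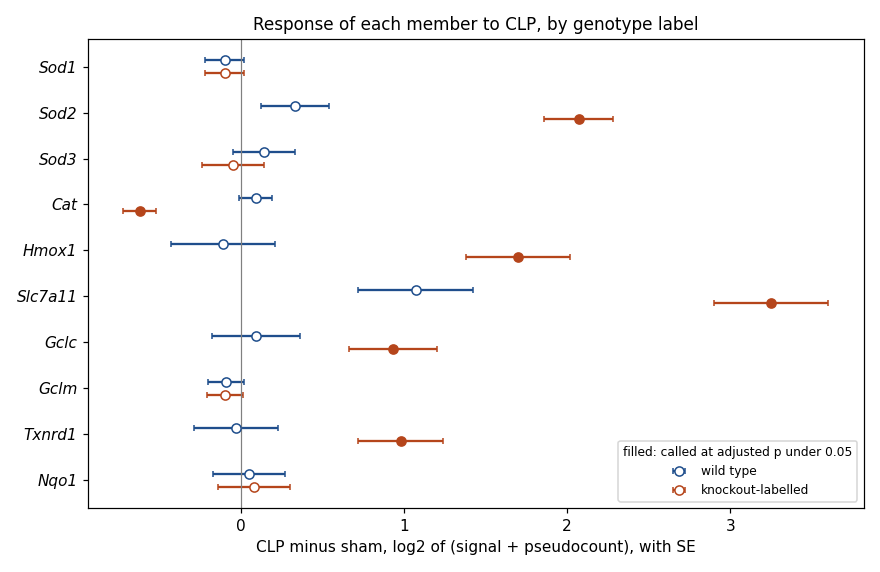
CLP minus sham for each of the 10 genes in log2 of signal plus pseudocount (horizontal axis), with standard error bars, for wild-type and knockout-labelled lung. Filled points passed the test. The 6 filled points are all knockout-labelled and run from -0.62 for Cat to 3.25 for Slc7a11.

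**Figure D4:**
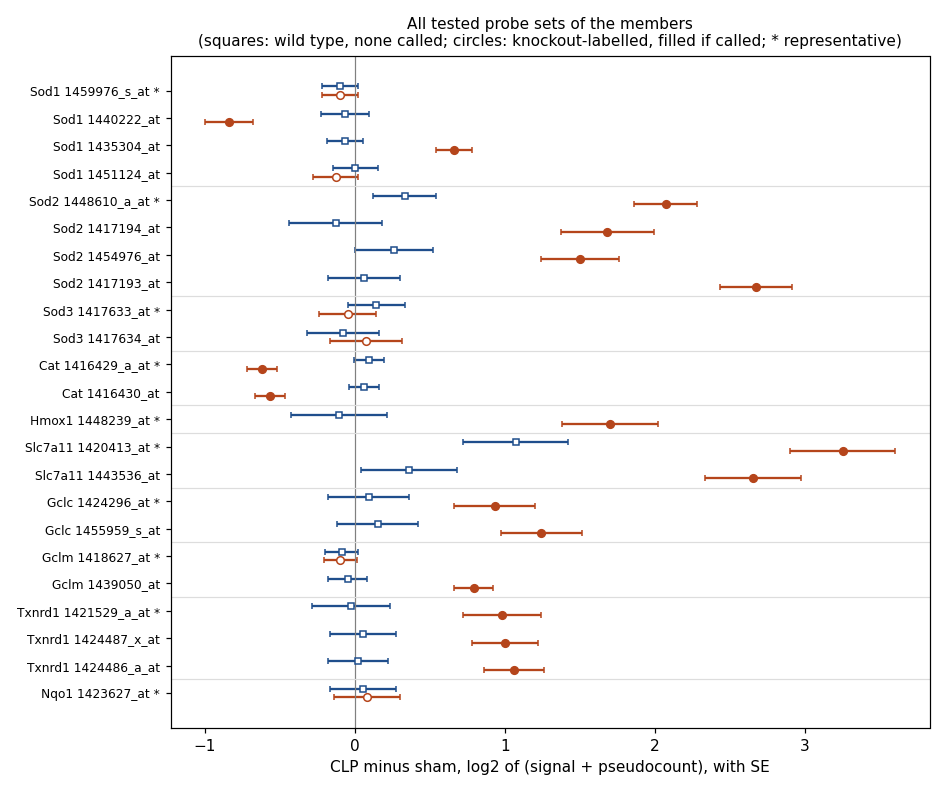
CLP minus sham for all 23 tested probe sets of the 10 genes, in log2 of signal plus pseudocount with standard errors, for wild-type (squares) and knockout-labelled lung (circles, filled where called). In knockout-labelled lung 14 of the 23 were called up and 3 down, where 10.4% and 18.8% of all probe sets were. The 14 include 3 weak probe sets of Sod2 and Slc7a11 that reached the test only through CLP arrays. The probe sets of Sod1 and Gclm disagree within the gene.

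The difference between the responses of the 2 genotypes was tested directly. It passed for Sod2 (1.73 ± 0.29, adjusted p = 0.014), Slc7a11 (2.19 ± 0.50, adjusted p = 0.033), Hmox1 (1.80 ± 0.45, adjusted p = 0.043) and Cat (-0.71 ± 0.14, adjusted p = 0.020). These are 3 upward and 1 downward of 10, where 1.69% of all tested probe sets were called up and 2.36% down, 4.05% in all. With no filter on low values, Slc7a11 (2.19 ± 0.50, adjusted p = 0.055) and Hmox1 (1.80 ± 0.44, adjusted p = 0.065) missed the threshold. Txnrd1 (1.01 ± 0.37, adjusted p = 0.14) and Gclc (0.84 ± 0.38, adjusted p = 0.21) did not pass, so their responses are not shown to differ between the genotypes. For Gclm, Nqo1, Sod1 and Sod3 the differences were -0.01, 0.03, 0.00 and -0.19. Gclm 1439050_at (0.83 ± 0.19, adjusted p = 0.031) and Sod1 1435304_at (0.73 ± 0.18, adjusted p = 0.040) passed where the representatives did not.

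Calls for the difference were often lost when 1 array was left out, while the estimates kept their direction. The Sod2 call was kept when any array but 1 was left out, and was lost without array 2 of wild-type CLP (1.65, adjusted p = 0.054). Cat lost its call without array 1 or 2 of wild-type sham, array 1 or 2 of wild-type CLP or array 2 of knockout-labelled CLP, with adjusted p up to 0.070. Hmox1 kept its call only without array 3 of knockout-labelled sham or without array 1 or 3 of knockout-labelled CLP, and otherwise reached an adjusted p of 0.11. Slc7a11 kept its call only without array 3 of knockout-labelled sham or array 1 of knockout-labelled CLP, and otherwise reached 0.099. With array 3 of knockout-labelled sham left out, Txnrd1 gained a call (0.58 ± 0.17, adjusted p = 0.044). In these refits each left-out array also leaves fewer samples for the estimate of spread. Without array 2 of wild-type CLP the estimates were 1.79 for Hmox1 and 2.10 for Slc7a11. Calls for the difference over all probe sets then went from 995 to 107.

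After sham surgery 0 of 10 genes differed between the genotypes at limma's adjusted p, where 8.34% of all probe sets did (4.48% higher and 3.86% lower). At an unadjusted p under 0.05, 2 of the 10 passed, Cat and Gclm. The arrays did not overlap for 3 of the 10, namely Sod1 (-0.17 ± 0.12), Cat (0.22 ± 0.10) and Gclm (0.24 ± 0.11), against 29.6% of all probe sets (15.3% higher and 14.3% lower). With array weights Cat (0.26, adjusted p = 0.024) and Slc7a11 (-0.88, adjusted p = 0.025) passed. That fit called 4071 of the 24574 tested probe sets, against 2050 in the main fit. After CLP, 5 of 10 were higher and 1 lower in knockout-labelled lung, where 12.6% and 16.9% of all probe sets were, 29.5% in all. Sod2 was 1.79 ± 0.21 higher (adjusted p = 9.7e-05), Hmox1 1.70 ± 0.32 (adjusted p = 0.0020) and Slc7a11 1.56 ± 0.35 (adjusted p = 0.0059), and Cat changed by -0.48 ± 0.10 (adjusted p = 0.0029). These comparisons use the same CLP arrays as the responses above and are not independent of them.

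Gclc (0.80 ± 0.27, adjusted p = 0.041) and Txnrd1 (0.78 ± 0.26, adjusted p = 0.043) passed narrowly after CLP. Both lost the call without any of the 6 wild-type arrays and without array 2 or 3 of knockout-labelled CLP, with adjusted p up to 0.12. Both also lost it with quantile normalisation (0.062 for Gclc and 0.065 for Txnrd1), with no filter (0.063 and 0.064) and with no intensity trend (0.065 and 0.066). Gclm was 0.23 ± 0.11 and Nqo1 0.35 ± 0.22 higher, and neither passed. The arrays did not overlap for 8 of the 10 genes, where 47.1% of all probe sets did not (20.6% higher and 26.5% lower).

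Nfe2l2, the gene of Nrf2 itself, read 489, 559 and 507 in wild-type sham against 594, 622 and 656 in wild-type CLP. Knockout-labelled sham read 497, 527 and 1587, and knockout-labelled CLP 1085, 1698 and 2353. The groups overlapped in knockout-labelled lung through array 3 of sham. The rise was 1.12 ± 0.36 (adjusted p = 0.035), and 1.66 ± 0.23 without that array. With quantile normalisation it was 1.03 ± 0.36 and missed the threshold (adjusted p = 0.054). On that sham array Nfe2l2 was high while Gclc and Txnrd1 were low.

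Of the 13 genes listed for Nrf2 and its regulators, all tested, 3 rose and 1 fell after CLP in knockout-labelled lung, with a median of 0.18 against -0.12 for all probe sets. Over all probe sets 10.4% rose and 18.8% fell. Maff, a small Maf partner, rose by 1.71 ± 0.32 (adjusted p = 0.0022), from 172, 143 and 104 to 246, 582 and 658. Bach1, the repressor that competes with Nrf2, rose by 0.37 ± 0.10 (adjusted p = 0.018), and by 0.24 ± 0.08 without array 3 of sham. Keap1, which targets Nrf2 for destruction, changed by -0.36 ± 0.11 (adjusted p = 0.030). The smaller calls depended on scaling. With quantile normalisation only Maff passed, and with centred arrays 6 rose and none fell, Keap1 then having -0.23 ± 0.11 (adjusted p = 0.14). Without array 1 of knockout-labelled CLP 6 rose and none fell, and Keap1 missed the threshold (adjusted p = 0.056). In the wild type none of the 13 passed limma's adjusted p, and 2, Bach1 and Maff, had an unadjusted p under 0.05.

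The glutathione list outside the 10 genes had 4 of 10 tested genes up and 1 down in knockout-labelled lung, with a median of 0.38. Over all probe sets 10.4% rose and 18.8% fell, and the median was -0.12. Beside Slc3a2, glutaredoxin Glrx went from 343, 301 and 506 to 810, 1339 and 1509, a rise of 1.65 ± 0.22 (adjusted p = 3.8e-04). Cth, which makes cysteine from cystathionine, went from 76.0, 71.4 and 103 to 170, 163 and 203, a rise of 1.08 ± 0.20 (adjusted p = 0.0022). Groups did not overlap for either gene. The difference between genotypes passed for Slc3a2 (0.80 ± 0.13, adjusted p = 0.012) and Cth (1.19 ± 0.28, adjusted p = 0.038). Centring or quantile normalisation kept the same 4 rises and ended the call of the fall.

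The counts of several other redox lists lay near the shares of all probe sets, 10.4% up and 18.8% down. Of 10 further superoxide and peroxide enzymes, 1 rose and 3 fell, with a median of -0.22. Gpx2, an epithelial glutathione peroxidase, rose by 0.60 ± 0.13, while Prdx2 (-0.42 ± 0.09) and Gpx7 (-0.53 ± 0.14) fell. Among 9 thioredoxin genes Srxn1, which repairs peroxiredoxins and is a known Nrf2 target, rose by 0.83 ± 0.22 (adjusted p = 0.013), and Sesn3 fell by 0.44 ± 0.11, a call that centring ended (adjusted p = 0.055). The count of falls in this list was 3 without array 3 of knockout-labelled sham and 4 without array 1 of knockout-labelled CLP. None of 5 genes of NADPH supply was called by limma after CLP in either genotype, and an unadjusted p under 0.05 was reached by 2 in the wild type and 0 in knockout-labelled lung.

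Glutathione transferases and other quinone and drug enzymes included 1 rise and 12 falls among 26 tested genes, with a median of -0.36 against -0.12. Over all probe sets 10.4% rose and 18.8% fell. Nqo2 had the smallest p, followed by Ephx1 (-0.50 ± 0.10) and Aox1 (-0.61 ± 0.14). The number of falls depended on scaling, with 4 after centring and 11 after quantile normalisation. Over all tested probe sets centring turned 2553 rises and 4619 falls into 3889 rises and 2983 falls, since knockout-labelled CLP arrays had a median change of -0.12. The 6 calls among the 10 genes kept their direction and their call under centring, and 5 of them did so with quantile normalisation, where the Gclc call was lost.

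Of 9 tested heme and iron genes, 2 fell and 1 was counted as up, Hpx, which is given as values alone. All probe sets had shares of 10.4% up and 18.8% down. Without array 3 of knockout-labelled sham the counts were 3 up, Hpx among them, and 2 down. Slc40a1, the iron exporter, read 79.1, 98.3 and 289 in knockout-labelled sham and 65.7, 41.3 and 61.8 after CLP, a change of -1.20 ± 0.36 (adjusted p = 0.025). Without array 3 of sham it was -0.64 ± 0.19, and with quantile normalisation the adjusted p was 0.059. Slc48a1, a heme transporter, changed by -0.35 ± 0.11, and centring ended that call (adjusted p = 0.17). Hpx was the rise in the main fit, and it reached the test only with the help of the knockout-labelled CLP arrays.

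Of 9 tested enzymes that make oxidants, 5 rose and none fell, with a median of 0.88, where 10.4% of all probe sets rose and 18.8% fell. These 5 were subunits of the phagocyte NADPH oxidase or its GTPase. Cyba rose by 0.88 ± 0.12 (adjusted p = 5.1e-04), Cybb by 1.42 ± 0.23 (adjusted p = 0.0010) and Rac2 by 1.83 ± 0.30 (adjusted p = 0.0012). The count of 5 was the same under centring and quantile normalisation and without array 3 of knockout-labelled sham. In wild-type lung Ncf1, another subunit, rose by 1.61 ± 0.27 (adjusted p = 0.014), from 157, 204 and 202 to 576, 557 and 597, and was the only gene of these 8 lists called there. No gene of this list was called by limma for the difference between genotypes, and 1, Cyba, had an unadjusted p under 0.05. That difference was called for Cyba with centred arrays or without array 1 of knockout-labelled CLP, and for 3 genes, Cyba, Cybb and Rac2, without array 3 of knockout-labelled sham.

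**Figure D5:**
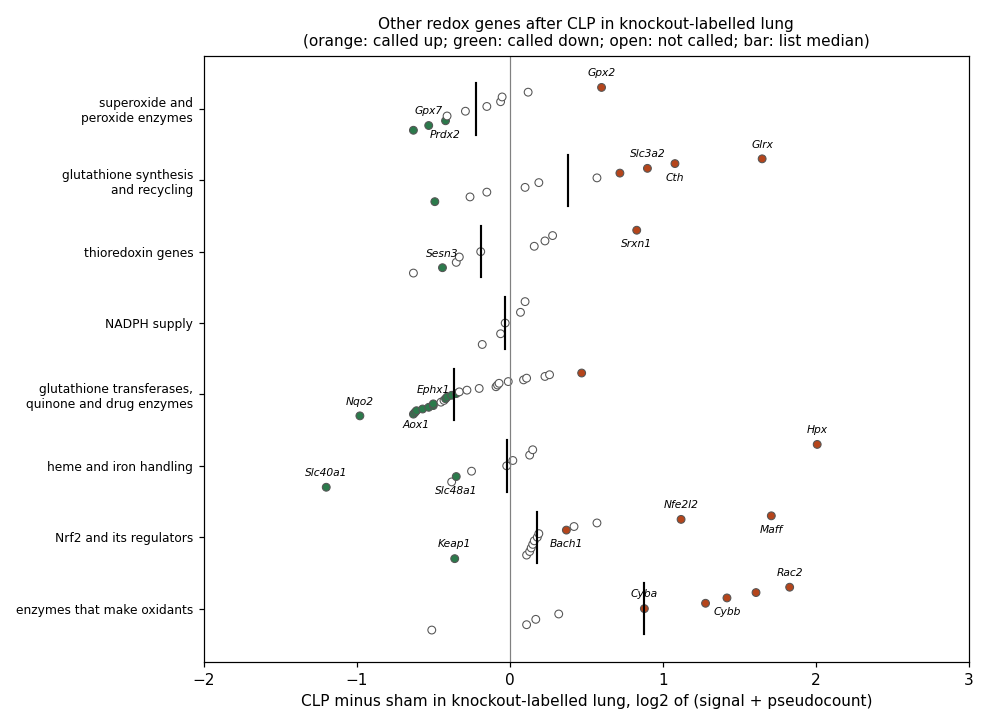
CLP minus sham in knockout-labelled lung, in log2 of signal plus pseudocount (horizontal axis), for each tested gene of 8 redox lists outside the 10 genes. Orange points were called up, green points down, open points were not called, and bars are list medians, from -0.36 for the transferases to 0.88 for the enzymes that make oxidants.

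Between the genotypes, some genes of these lists differed already after sham, where 8.34% of all probe sets did (4.48% higher and 3.86% lower). They were 3 of 26 transferases and drug enzymes, 2 of 9 heme and iron genes and 1 of 5 NADPH genes. The others were 1 of 10 superoxide and peroxide enzymes, 1 of 9 thioredoxin genes and 1 of 9 enzymes that make oxidants. No glutathione gene or Nrf2 regulator was called. No excess over the share of all probe sets is claimed. Abcc1, an exporter of glutathione conjugates, was 1.07 ± 0.13 higher in knockout-labelled lung after sham (adjusted p = 2.3e-04) and 1.33 ± 0.13 higher after CLP. Xdh, which makes superoxide and uric acid, was 1.23 ± 0.21 and 1.58 ± 0.21 higher. Blvra, which turns the biliverdin made by heme oxygenase into bilirubin, was 0.82 ± 0.14 and 1.01 ± 0.14 higher. Idh1, a source of cytosolic NADPH, was 0.55 ± 0.10 and 0.52 ± 0.10 higher. Gpx7, a peroxidase of the endoplasmic reticulum, differed by -0.50 ± 0.14 after sham (adjusted p = 0.045), a call lost without array 3 of knockout-labelled sham, and by -0.78 ± 0.14 after CLP. Txnip, which binds thioredoxin, was lower after sham (-0.65 ± 0.15, adjusted p = 0.018). The transferases Gstp1 (0.48 ± 0.11) and Gsta3 (0.70 ± 0.17) and Fech, the last enzyme of heme synthesis (0.79 ± 0.18), were higher after sham. These 3 did not pass after CLP.

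After CLP the other named differences, knockout-labelled minus wild type, were as follows. Among Nrf2 regulators Nfe2l2 was 1.38 ± 0.36 higher (adjusted p = 0.014), Keap1 differed by -0.42 ± 0.11 (adjusted p = 0.014) and Sqstm1, which binds Keap1, by 0.26 ± 0.07 (adjusted p = 0.017). The Sqstm1 call was lost with quantile normalisation (0.20 ± 0.07, adjusted p = 0.062). Of the glutathione genes Cth was 1.54 ± 0.20 higher, Glrx 1.02 ± 0.22 and Slc3a2 0.67 ± 0.09. Gpx2 was 0.84 ± 0.13 higher, and Gpx3, the secreted peroxidase, differed by -0.48 ± 0.09. Srxn1 was 0.98 ± 0.22 higher, while the sestrins Sesn1 (-1.98 ± 0.34) and Sesn3 (-0.47 ± 0.11) were lower. Akr1b8, an aldo-keto reductase, was 0.74 ± 0.15 higher and the transferase Gstm2 lower (-0.61 ± 0.12). Hpx, given as values alone, read 19.5, 32.7 and 25.1 after wild-type CLP, below its knockout-labelled CLP values. Slc40a1 was lower (-1.95 ± 0.36). The oxidase subunits Cybb and Ncf4 were 1.13 ± 0.23 and 1.17 ± 0.27 higher.

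The genes with the most similar profiles over the 12 arrays were taken for Slc7a11 and Sod2, which varied most (SD of log2 signal 1.35 and 0.95). For Slc7a11 they were Arg2 (r = 0.988), Spi1 (0.980), Cemip2 (0.980), Ostf1 (0.978) and Slc15a3 (0.977), of 11859 genes. Arg2, a mitochondrial arginase, read 297 to 342 in wild-type sham, 578 to 693 in wild-type CLP, 230 to 358 after knockout-labelled sham and 965 to 1557 after knockout-labelled CLP. For Sod2 they were Myd88 (0.992), Casp4 (0.991), Tifa (0.990), Saa1 (0.990) and Rab31 (0.989). Myd88, the adaptor of Toll-like and interleukin-1 receptors, averaged 445 ± 27.0, 530 ± 52.4, 503 ± 18.9 and 1439 ± 443 in the same order of groups. These correlations describe arrays in 4 groups and carry no test.

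Summed markers of leukocytes were high after knockout-labelled CLP, but not only there. The summed signal of 10 neutrophil markers, of 12 listed, was 9762 to 16125 in wild-type sham, 35129 to 38723 in wild-type CLP, 10844 to 26882 in knockout-labelled sham, then 43763 to 48239 in knockout-labelled CLP. Of these, 7 rose in the wild type and 8 in knockout-labelled lung, where 0.814% and 10.4% of all probe sets rose. Between the genotypes after CLP, 3 of the 10 were called higher and 1 lower in knockout-labelled lung, beside 12.6% and 16.9% of all probe sets. Means there were higher for Camp, Ngp, Ltf, Csf3r, Cxcr2 and Mmp8, and lower for S100a8, S100a9, Mmp9 and Trem1. The 5 monocyte markers summed to 778 to 802, 2252 to 3342, 1627 to 2691 and 7114 to 13648 in the 4 groups. Of the 5, 1 was called up after CLP in the wild type and 4 in knockout-labelled lung, beside the same 0.814% and 10.4%. The wild-type sum rose mainly through Cd14, with means of 288 after sham and 2186 after CLP. Plac8 had 384 and 600, Ccr2 44.2 and 58.8, Vcan 44.1 and 44.2, and Fcgr1 32.8 and 41.4. Sums of 9 alveolar macrophage markers ranged from 3295 to 3747 in wild-type sham, 3479 to 3699 in wild-type CLP and 9425 to 10424 in knockout-labelled CLP. On the knockout-labelled sham arrays they were 3425 and 3739 on arrays 1 and 2 and 10452 on array 3, where Chil3 alone read 6048. After CLP 6 of the 9 were called higher and 1 lower in knockout-labelled than in wild-type lung. Over all probe sets 12.6% were called higher and 16.9% lower. The part of these cells in the rises of Slc7a11, Sod2 and Hmox1 was not tested.

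Structural cells and other organs were checked in the same way. Endothelial markers summed to 12864 to 14053 after knockout-labelled sham against 10104 to 11523 after CLP, and 3 of 7 were called down. Means of Kdr, Tek, Calcrl and Vwf were lower after CLP, and those of Pecam1, Cdh5 and Cldn5 were higher. Smooth muscle markers summed to 3568 to 4860 after sham and 2925 to 3391 after CLP, with 4 of 6 called down. Fibroblast markers summed to 8951 to 10923 and 7064 to 9286, with 4 of 6 down and 1 up. Also called down were 2 of 6 alveolar type 1 and 2 of 5 ciliated cell markers. The part of these cells in the falls of Cat and the transferases was not tested. The 7 cardiac muscle markers summed to 7909 to 12207 after knockout-labelled sham, against 2530 to 6212 in the other groups, and 6 of 7 fell after CLP in knockout-labelled lung. Beside these counts, 18.8% of all probe sets fell and 10.4% rose in that comparison. Markers of alveolar type 2 cells (38452 to 45287) and club cells (34093 to 48982) were high on every array, as in lung. Hepatocyte markers summed to 328 at most, with Ahsg no higher than 2.70 on any array, beside the rise of Hpx. Red cell markers summed to 683 to 1751, mainly Alas2, beside Hmox1.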

How the data were processed

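The table deposited by the authors holds linear signal intensity per probe set. GCOS, MAS5 and Affymetrix Expression Console appear in the submitters' processing notes without versions or order. Detection calls were not used here, so weak signals have no background limit of their own, and the number of arrays, 3 per group, limits the precision. Of 45101 probe sets, 64 controls were left out. Log2 of signal plus 3.47 (10% of the median of array medians) was used, and 24574 probe sets above their array median on at least 3 arrays were tested. Names came from the platform annotation: 34945 probe sets had 1 symbol, 932 several and 9160 none, and only the first were named.

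A linear model with 4 group means was fitted with limma 3.58.1 (R 4.3.3, moderated statistics with intensity trend). P-values were adjusted by Benjamini-Hochberg over all tested probe sets within a contrast. The scripts were tested on simulated data. This model and its alternatives gave every adjusted p printed. An exact permutation test of 3 against 3 arrays cannot go below 0.1 and was not used.

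The genes, lists and tests were chosen with earlier results of these data known. Genes outside the 10 were named by a rule: per list and contrast the 3 called genes with the smallest p, and every called Nrf2 regulator. Genes and probe sets given only with values are not read as calls, but those that passed the threshold remain in the counts of lists and probe sets. List counts under other scalings or without an array, and the bounds of weak probe sets over sham array medians, were added after seeing the data. Alternatives covered scaling, pseudocount, filter, moderation, probe set choice, the replicate block and each array left out.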

Additional observations from a re-analysis of the deposited data

Results flagged for a closer look

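The test of the difference between the CLP responses (knockout-labelled minus wild type, log2, limma) passed for 4 of the 10 genes, 3 up and 1 down, where 1.69% of all probe sets were called up and 2.36% down. For Sod2 the difference was 1.73, and all 3 knockout-labelled CLP arrays read higher than any other array. For Cat it was -0.71, for Hmox1 1.80 and for Slc7a11 2.19. With no filter on low values, Hmox1 (adjusted p = 0.065 by limma) and Slc7a11 (adjusted p = 0.055) missed the threshold. When each array was left out in turn, Sod2 passed in 11 of 12 refits, Cat in 7, Hmox1 in 3 and Slc7a11 in 2.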

How the results depend on the processing

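The log2 changes of the 10 genes in 5 contrasts gave 1235 values under alternative settings. Of these 1117 kept direction and call, 57 lost a call, 10 gained one, 1 reversed and 50 differed in sign without a call in either setting. The reversal was Gclm in knockout-labelled lung, 0.35 for the mean of its probe sets, where the probe sets themselves differ. In the wild type 1 gene passed with array weights, and 2 passed in the fit of only the groups compared. For knockout-labelled against wild type after sham 2 passed with array weights. For the difference of the responses 2 passed with no filter on low values, and leaving out an array gave from 0 (without array 2 of wild-type CLP) to 5 (without array 3 of knockout-labelled sham). Over all probe sets the calls for that difference were 995, from 107 to 3284 on leaving out an array and from 557 with no filter to 5834 with array weights. Calls for the wild-type response were 233, from 51 to 432 on leaving out an array and from 169 with no filter to 1308 with array weights. Calls in knockout-labelled lung were 7172, and 2669 with only the groups compared. Calls between genotypes after sham were 2050, from 1130 without an array to 4071 with array weights, and after CLP 7246, from 4553 without an array to 10403 with array weights. The cause of these changes was not tested.

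Replicate numbers did not pair the samples: of 18 pairs of same-numbered arrays 2 had correlated deviations above 0.1, and the range was -0.1 to 0.12. With the replicate number as a block, 6 of the 10 genes passed in knockout-labelled lung (Sod2 2.07, Slc7a11 3.25) and 3 for the difference of the responses, Hmox1 losing its call (1.80, adjusted p = 0.065 by limma). Over all probe sets, the alternatives with every array kept, this block among them, gave 2669 to 10287 calls for the former and 557 to 5834 for the latter. Weak signals limit Slc7a11, whose sham values lie below the array medians.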
